A study of Schizosaccharomyces pombe with 8 samples.

Results

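The response of fission yeast cells without the transcription factor gene pap1 to nitric oxide was measured on 4 arrays, which were chosen by their titles: 2 of the pap1 deletion strain treated with detaNONOate and 2 control arrays of the same strain, of 8 arrays in the series. The other 4 arrays hold wild type cells under the same 2 conditions and serve as the comparison. Genes were the probe sets named with a single Schizosaccharomyces pombe gene, with the brightest probe set per gene, which left 2896 of the 5124 protein-coding genes in the reference table. The deletion strain was AV25 (h- pap1::kanMX6) and the wild type strain was 972h-, and both groups of each strain carried that strain's genotype unchanged. Cells of both strains were grown in yeast extract medium, moved into phosphate-buffered saline and kept there at 30 °C. Treated cells received 3 mM detaNONOate, a compound whose decay frees nitric oxide, and were sampled after 15 min, and control cells received the same amount of decomposed detaNONOate. Arrays of a group are biological replicates per the labels, with control and treated cells drawn from a common flask, so p-values measure the spread between these samples. All cells were thus in saline without medium during the treatment, controls included, and the deletion is represented by 1 strain.

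Nitric oxide is a small radical that reacts with heme iron, with iron-sulfur clusters and with cysteine thiols. Fission yeast answers stress mainly through the mitogen-activated protein kinase Sty1, which acts on the bZIP factor Atf1 and its partner Pcr1, and through Pap1, an AP-1 type bZIP factor that enters the nucleus after oxidation of its cysteines and switches on genes for peroxide removal and drug efflux. Cells that lack Pap1 keep the Sty1 route and the metal-sensing regulators of iron, copper and zinc.

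The deleted gene read as labelled. The pap1 probe set gave 2.14 and 2.20 in the treated deletion arrays and 2.33 and 2.35 in the control deletion arrays, on the log2 scale used throughout, against 10.11 and 10.09 in treated and 9.90 and 9.93 in control wild type arrays. All 4 deletion values were below 3.41, taken as the background since 95% of the probe sets for Saccharomyces cerevisiae genes, which the array also carries, averaged less. The median S. pombe gene lay between 7.85 and 7.96 in the 8 arrays, and replicate arrays of the deletion differed by a median of 0.072 in treated and 0.050 in control cells. All 5 markers of h- (M) cells lay above background in the 4 deletion arrays, among them mam1 at 6.70 and 6.71 in treated and 6.23 and 6.19 in control arrays. The P cell receptor and pheromone genes lay above background as well, with map2 at 4.87 and 4.96 in treated and 4.79 and 4.71 in control arrays, so these probe sets did not separate the mating types.

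Treated and control arrays differed in the balance of signal along transcripts. Labelling starts at the 3' end of a message, so the excess of 3' over 5' signal in a control transcript rises when labelled products are shorter. Its median over 7 S. pombe transcripts was 2.64 ± 0.12 in treated and 1.65 ± 0.01 in control deletion arrays (log2, mean ± SD, n = 2 each), a shift of 0.99. The same shift was 2.01 in wild type. In the deletion ACT1 shifted by 1.45 and TFIID by -1.01. The 4 control RNAs from Bacillus subtilis, which are not yeast messages, shifted by a median of 0.48 in the deletion and 1.02 in wild type. Hybridisation controls read 7.56 in treated and 7.51 in control deletion arrays, but in wild type arrays they were 1.26 higher after treatment. The 2 median shifts were thus larger in wild type, where the response was larger too. Each of the 7 S. pombe transcripts shifted further in wild type, where the shifts ran from 3.55 in ACT1 to -1.59 in TFIID. Of the 4 control RNAs thr alone shifted less there, by 0.46 in the deletion and 0.39 in wild type. The part of all these values in the results below was not tested.

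**Figure D1:**
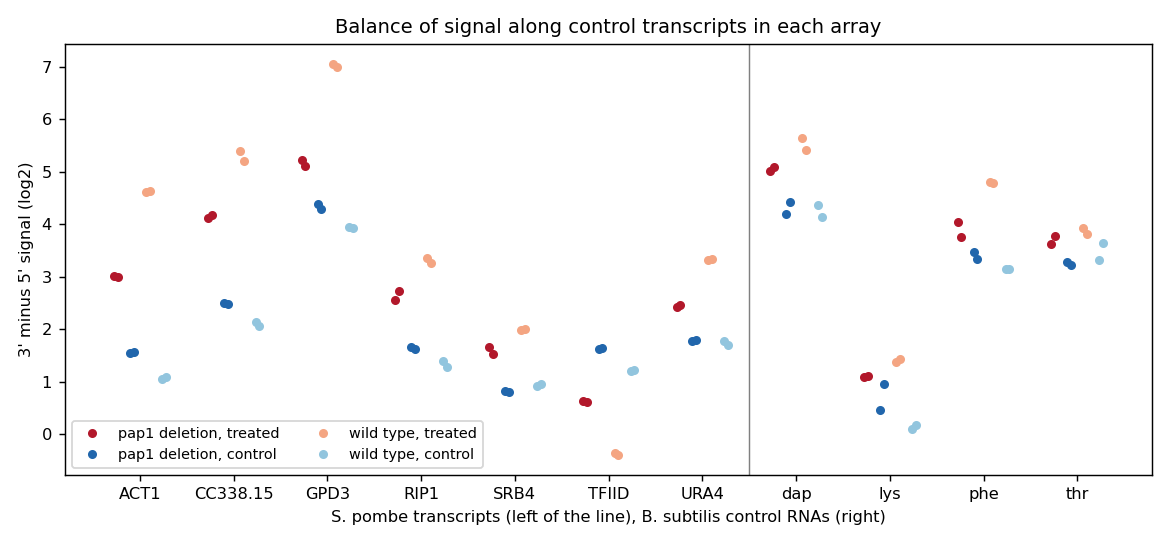
The 3' minus 5' signal (log2, vertical axis) of each of 7 S. pombe control transcripts and 4 B. subtilis control RNAs in each of the 8 arrays, where each point is 1 array. The median over the 7 yeast transcripts was 2.64 in treated and 1.65 in control deletion arrays, and TFIID alone of the 7 was lower in treated arrays.

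Most measured genes differed between treated and control deletion arrays, mostly by little. In limma 1806 of 2896 genes (62.4%) passed an adjusted p of 0.05, of which 1028 (35.5%) rose and 778 (26.9%) fell, and the median size of these changes was 0.39 on the log2 scale. Changes of at least 2-fold were fewer and mostly downward: 68 genes (2.35%) fell and 17 (0.587%) rose. The median gene changed by 0.047. Calls reached down to 0.10 for rises and -0.11 for falls, and the probe set of the absent gene pap1 was itself called lower. How far small calls reflect differences between arrays rather than the treatment was not tested. The 68 genes that fell included regulators of stress and glucose signalling, while the 17 that rose included genes of copper and iron uptake and nitrogen use. RNA was taken from whole cultures, so fewer cells with a message and less message per cell cannot be told apart.

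**Figure D2:**
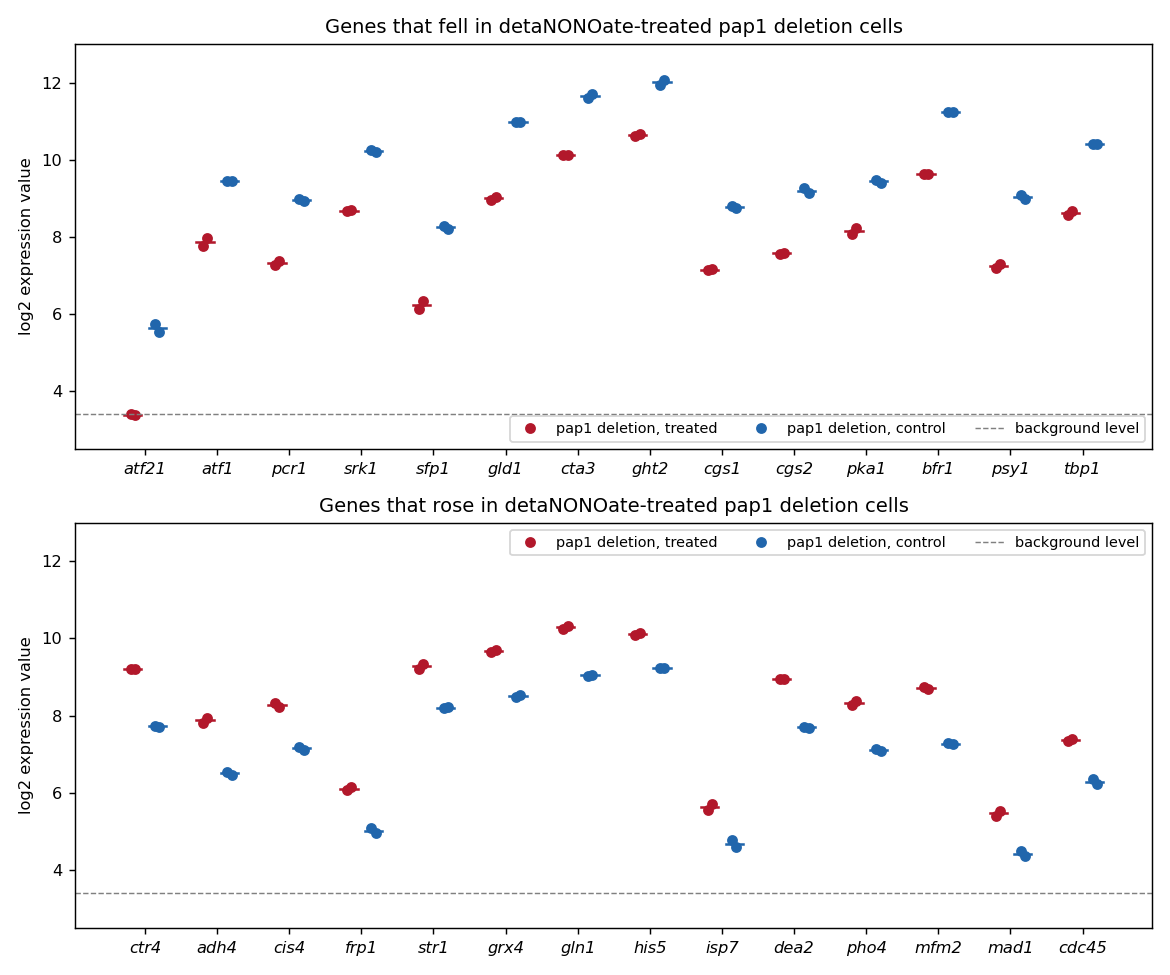
Deposited log2 expression values (vertical axis) of 14 genes that fell and 14 genes that rose in the pap1 deletion, with 1 point per array, bars at the group means and a dashed line at the background level of 3.41. For each gene shown the treated and the control points do not overlap. Over all genes both treated arrays lay above both control arrays in 46.7% and below both in 36.5%.

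Most messages of the Sty1 stress pathway fell in treated deletion cells. Of 31 measured genes of the kinase cascade and its transcription factors, 26 fell, 1 rose and 4 gave no call, and the median was -0.65 against 0.047 over all genes. Every list count here and below is to be read beside the shares over all genes, of which 35.5% rose and 26.9% fell. The lists were chosen with earlier results of these data known, so a share above these is not a test of a list. Counts of 3 or fewer members moved by over 1.5 times in several fits with an array left out. The bZIP factor gene atf21 read 3.41 and 3.38 in treated arrays and 5.75 and 5.55 in control arrays. Its treated mean lay under background, so atf21 was at least 4.71-fold lower (adjusted p = 1.38e-05), the largest fall of any gene in the deletion by log2 difference. The message of atf1, the end point of the pathway, read 7.77 and 7.97 in treated and 9.45 and 9.46 in control arrays, a fall of 1.59 ± 0.07 (log2, SE, n = 2 per group), or 3.00-fold. For pcr1 the values were 7.28 and 7.38 in treated and 8.99 and 8.93 in control arrays, a fall of 1.63 ± 0.06. In all 3 genes the treated and control arrays lay far apart, with no overlap.

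Kinases and phosphatases of the same pathway fell as well. The kinase gene srk1, whose product binds Sty1, read 8.67 and 8.70 in treated and 10.26 and 10.21 in control arrays, which is 2.93-fold lower (adjusted p = 2.08e-06). The tyrosine phosphatase gene pyp2, which turns Sty1 off, was 2.24-fold lower, and the RNA-binding protein gene rnc1 was 2.06-fold lower. The upstream kinase gene wis1 fell by 0.62 ± 0.05 and sty1 itself by 0.29 ± 0.06, so the kinase message changed less than those of its factors. The heat shock factor gene hsf1 fell by 0.91 ± 0.05 and the bZIP factor gene zip1 by 0.36 ± 0.06.

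Genes that Sty1 and Atf1 switch on under many stresses were mostly lower as well. In the core environmental stress list 19 of 23 fell, 1 rose and 3 gave no call, and the median was -0.61. Several members belong to glycerol and trehalose metabolism, which builds osmolytes and stores and in which 6 of 9 genes fell and 2 rose (median -0.43). The glycerol dehydrogenase gene gld1 read 8.97 and 9.05 in treated and 10.98 and 10.97 in control arrays, 3.90-fold lower (adjusted p = 1.63e-06). The cation pump gene cta3 read 10.12 in both treated arrays and 11.61 and 11.70 in the control arrays, 2.91-fold lower. In each of these the replicate spread was a small part of the difference. The neutral trehalase gene ntp1 fell by 1.09 ± 0.04, the glycerol-3-phosphate dehydrogenase gene gpd1 by 0.84 ± 0.05 and the trehalose-6-phosphate synthase gene tps1 by 0.61 ± 0.07. The stress and spore genes rds1 (-1.84 ± 0.08) and isp3 (-1.56 ± 0.05) fell further. The gluconeogenic enzyme gene fbp1, which glucose represses, was 2.24-fold lower. By contrast the small heat shock genes changed little: hsp9 fell by 0.41 ± 0.04 and hsp16 by 0.25 ± 0.04, with control values of 13.68 in both arrays for hsp9 and of 13.07 and 13.11 for hsp16.

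Some of the genes that depend on Pap1 during oxidative stress fell in these cells, which have no Pap1. Of 10 measured members 5 fell, 1 rose and 4 gave no call, and the median was -0.15. The drug efflux transporter gene bfr1 read 9.64 and 9.62 in treated and 11.23 and 11.25 in control deletion arrays, 3.06-fold lower (adjusted p = 1.39e-06). The sulfiredoxin gene srx1, whose product repairs oxidised peroxiredoxin, read 10.96 and 10.99 in treated and 11.89 in both control arrays, a fall of 0.92 ± 0.04. Neither gene overlapped between the groups, as was true of most genes. Catalase ctt1 and the flavoprotein gene obr1 each fell by 0.61 (SE 0.06 and 0.04), and the peroxiredoxin gene tpx1 fell by 0.27 ± 0.04. The glutathione reductase gene pgr1 rose by 0.17 ± 0.04, a call that was lost without treated replicate 2 (0.15) and without control replicate 1 (0.16).

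Other members of this list gave no call. Thioredoxin reductase trr1 was at 0.08 (adjusted p = 0.146), the transporter gene caf5 at 0.16 (adjusted p = 0.333) and the glutathione transferase gene gst2 at -0.03 (adjusted p = 0.856). The gst2 message read 4.40 and 4.87 in treated and 4.79 and 4.55 in control deletion arrays, against 7.76 and 7.88 in treated and 8.80 and 8.83 in control wild type arrays. Its level was thus low in all 4 deletion arrays, where the treated and control values overlapped. The obr1 message was also lower in the strain without Pap1, at 10.05 in both control deletion arrays against 11.76 and 11.72 in control wild type arrays; these level differences between strains were not tested.

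Among the wider antioxidant genes the members moved in opposite directions. Of 20 genes of glutathione, thioredoxin and peroxide removal, 5 rose and 7 fell, with a median of -0.02 that turns to 0.067 without treated replicate 1. The glutathione transferase gene gst3 read 9.01 and 9.03 in treated and 10.52 and 10.50 in control arrays, 2.80-fold lower. The copper and zinc superoxide dismutase gene sod1 fell by 0.83 ± 0.04 and the glutathione peroxidase gene gpx1 by 0.54 ± 0.04. In the other direction, the monothiol glutaredoxin gene grx4, whose product passes iron status to the iron repressors, read 9.65 and 9.70 in treated and 8.48 and 8.53 in control arrays, 2.25-fold higher (adjusted p = 4.29e-06). The glucose-6-phosphate dehydrogenase gene zwf1, a source of NADPH, fell by 0.33 ± 0.06. The list of genes for removal of nitric oxide and nitrosothiols had no member among the 2896 genes and was not analysed here.

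Genes of metal uptake and metal response were among the largest rises. In the copper and zinc list 9 of 15 members rose and 3 fell, with a median of 0.18. The copper transporter gene ctr4 read 9.21 in both treated arrays and 7.74 and 7.70 in control arrays, which is 2.80-fold higher (adjusted p = 7.7e-06). The mitochondrial alcohol dehydrogenase gene adh4, which fission yeast represses when zinc is plentiful, read 7.80 and 7.95 in treated and 6.54 and 6.47 in control arrays, 2.59-fold higher. The Golgi zinc transporter gene cis4 was 2.18-fold higher. Treated and control arrays of these 3 genes did not overlap, as was true of most genes. The metallothionein gene zym1 went the other way, at 9.04 and 9.13 in treated and 9.55 and 9.53 in control arrays (-0.46 ± 0.05).

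Iron genes moved in both directions. Of 16 iron regulators and uptake genes 5 rose and 7 fell, with a median of 0.06 that changes sign without control replicate 2 (-0.04). Without control replicate 1, 4 fell. The ferric reductase gene frp1 read 6.07 and 6.15 in treated and 5.09 and 4.96 in control arrays, 2.13-fold higher. The siderophore transporter gene str1 read 9.21 and 9.35 in treated and 8.19 and 8.22 in control arrays, 2.10-fold higher. Siderophore transporter str3 (0.80 ± 0.11) and the vacuolar transporter abc3 (0.66 ± 0.07) rose too. Regulators fell, namely the iron repressor gene fep1 by 0.70 ± 0.07, the iron-starvation repressor gene php4 by 0.66 ± 0.07 and its CCAAT-binding partner php5 by 0.85 ± 0.07.

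Iron-sulfur, heme and respiratory genes gave mixed counts. Among 21 genes of iron-sulfur cluster and heme proteins 10 rose and 7 fell (median 0.09), and the number that rose was 4 without control replicate 1 and 5 without treated replicate 1 or control replicate 2, and 5 with the replicate number as a block. Without either wild type control array 6 rose. The scaffold and assembly genes isa1 (-1.17 ± 0.04) and isu1 (-0.74 ± 0.07), cytochrome c1 gene cyt1 (-0.70 ± 0.05) and the succinate dehydrogenase gene sdh2 (-0.62 ± 0.05) fell furthest. Of 54 genes of the respiratory chain, coenzyme Q and the citrate cycle 19 fell and 12 rose (median -0.03), and 5, 6 and 7 rose without control replicate 2, treated replicate 2 and control replicate 1. The coenzyme Q binding protein gene coq10 was 2.01-fold lower, and qcr1 of complex III fell by 0.70 ± 0.07.

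Most genes of glucose sensing and uptake fell. Of 8 measured hexose transporters 7 fell and 1 rose, with a median of -0.84. The transporter gene ght2 read 10.61 and 10.67 in treated and 11.94 and 12.07 in control arrays, 2.57-fold lower (adjusted p = 6.86e-06). The falls of ght3, ght1 and ght4 lay between 0.93 and 0.99. In the list of cAMP and glucose signalling, the route by which glucose activates protein kinase A, 12 of 18 fell and 2 rose (median -0.58). The regulatory subunit gene cgs1 read 7.13 and 7.17 in treated and 8.80 and 8.74 in control arrays, 3.07-fold lower. The phosphodiesterase gene cgs2, which breaks down cAMP, was 3.08-fold lower, the catalytic subunit gene pka1 2.42-fold lower and the related kinase gene sck2 2.70-fold lower. Members that switch the pathway on and members that switch it off were thus both among the falls. Of 18 glycolytic, fermentation and gluconeogenic genes 5 fell and 2 rose, with a median of -0.03 that turns to 0.017 when the S. pombe genes are quantile normalized; without control replicate 1, 3 fell. The fermentative alcohol dehydrogenase gene adh1 fell by 0.27 ± 0.05.

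Genes of nitrogen use and amino acid synthesis rose more often than they fell. In the amino acid list 21 of 35 rose and 3 fell (median 0.16), and in the list of the TOR growth kinase and nitrogen use 11 of 22 rose and 6 fell (median 0.17). The glutamine synthetase gene gln1, which belongs to both, read 10.25 and 10.33 in treated and 9.03 and 9.07 in control arrays, 2.37-fold higher (adjusted p = 9.93e-06). The histidine pathway gene his5 read 10.09 and 10.15 in treated and 9.25 and 9.22 in control arrays, a rise of 0.88 ± 0.04. In both genes the groups stood well apart. The histidine gene his4 (0.56 ± 0.05) and the arginine gene arg5 (0.53 ± 0.04) rose less. The dioxygenase gene isp7, tied to amino acid uptake, rose by 0.95 ± 0.15. The GATA factor gene gaf1 fell by 0.77 ± 0.06 and the TOR-controlled kinase gene gad8 by 0.62 ± 0.06. In the sulfur assimilation and methionine list 3 of 13 rose and 3 fell, and 5 rose when the S. pombe genes were quantile normalized or with a trended, robust prior. Its methionine gene met6 fell by 0.80 ± 0.06.

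**Figure D3:**
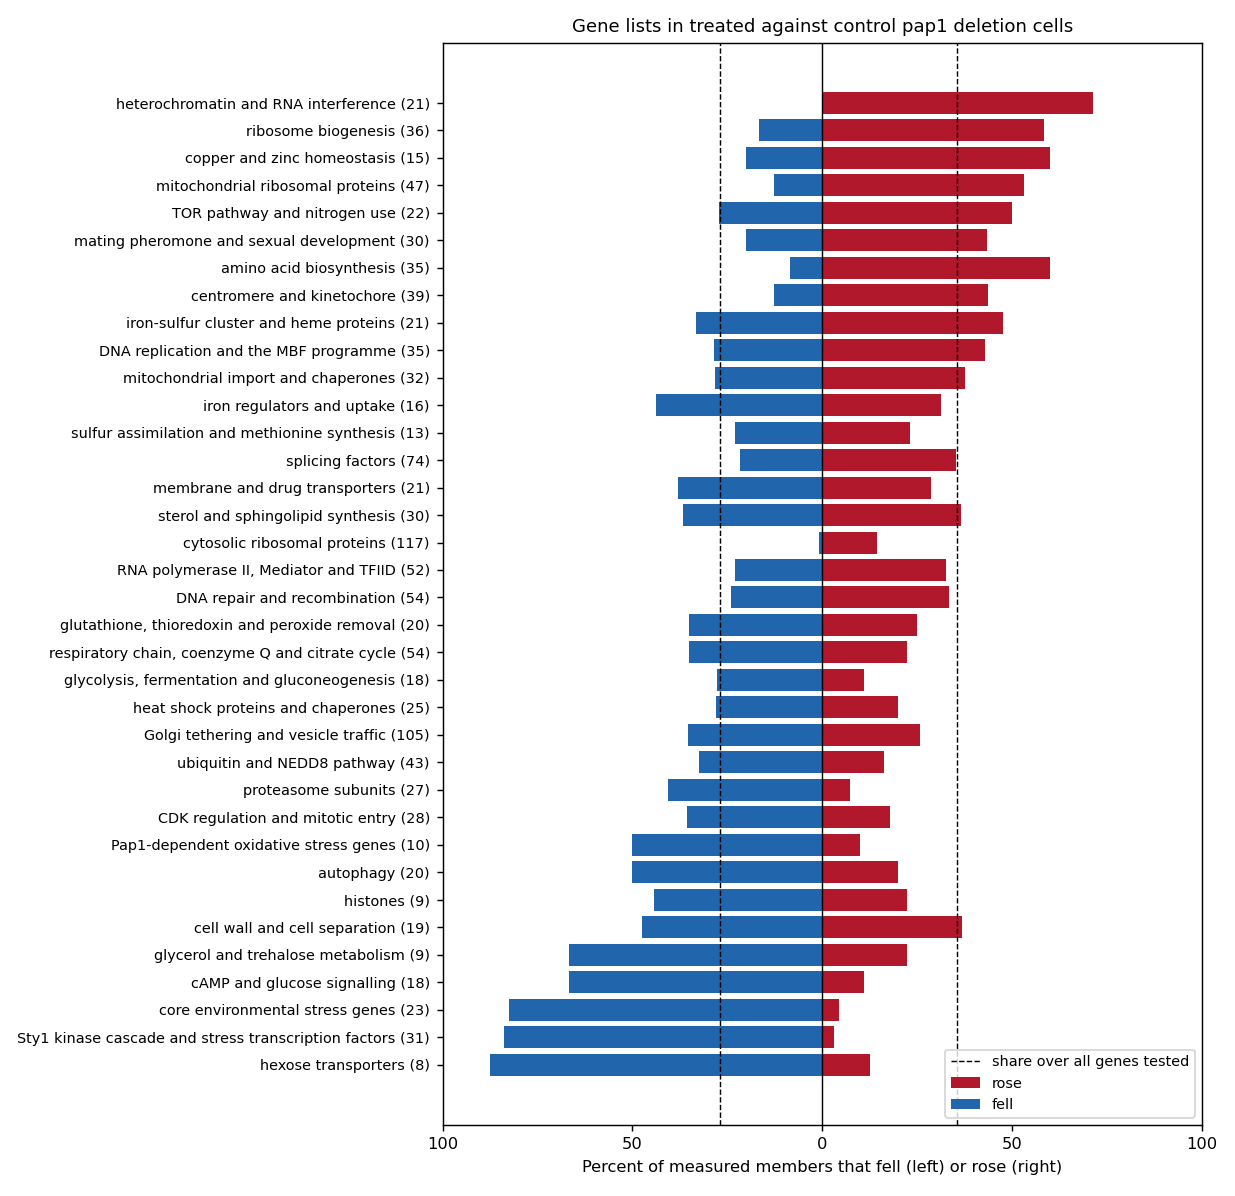
Share of the measured members of each gene list that rose (red, right) or fell (blue, left) in treated against control pap1 deletion cells at an adjusted p of 0.05 (horizontal axis, percent), with the number measured in brackets and lists ordered by median difference. Dashed lines mark the shares over all 2896 genes, 35.5% higher and 26.9% lower.

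The other large falls were scattered over several roles. The transcription factor gene sfp1 read 6.14 and 6.35 in treated and 8.28 and 8.21 in control arrays, 4.00-fold lower, and mug108 was 3.87-fold lower. The NEDD8 protease gene nep2 was 3.61-fold lower, the plasma membrane syntaxin gene psy1 3.46-fold and the TATA-binding protein gene tbp1 3.42-fold lower. The cytokinesis gene fic1 was 2.97-fold lower. Several of these lie in lists that as a whole moved little. Among 105 genes of Golgi tethering and vesicle traffic 37 fell and 27 rose (median -0.05), and 14 rose without control replicate 2. Next to psy1, vps20 (-1.22 ± 0.06) and sed5 (-1.05 ± 0.08) fell, and the tethering gene cog5 rose by 1.05 ± 0.06. The 52 genes of RNA polymerase II, Mediator and TFIID had 17 higher and 12 lower (32.7% and 23.1%), near the shares over all genes. There the TFIID gene taf1 fell by 0.87 ± 0.06. In the ubiquitin and NEDD8 list 14 of 43 fell and 7 rose, with 11 higher after quantile normalization and 4 higher without treated replicate 1 or control replicate 2. Of 27 proteasome subunits 11 fell, among them rpt5 (-0.81 ± 0.06), and 2 rose. Autophagy genes fell more often than they rose, 10 against 4 of 20, with atg101 2.33-fold lower; 2 rose after quantile normalization, with a trended, robust prior, with the replicate block, and without treated replicate 2, control replicate 2 or either wild type control array.

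Lipid, cell wall and folding genes moved both ways. In the sterol and sphingolipid list 11 of 30 rose and 11 fell, with a median of 0.03 that turns to -0.01 without treated replicate 2, and the C-5 sterol desaturase gene erg31 was 2.44-fold lower. The cell wall list had 9 of 19 lower and 7 higher (median -0.20), and psu1 was 2.55-fold lower. Among 25 heat shock proteins and chaperones 7 fell and 5 rose (median -0.04). There 3 rose with the replicate block or without control replicate 2, and 2 without treated replicate 2 or control replicate 1. The Hsp70 gene ssa1 fell by 0.55 ± 0.06 and the endoplasmic reticulum chaperone gene bip1 by 0.44 ± 0.05. Of 21 membrane and drug transporters 8 fell and 6 rose, and pmd1, a drug efflux pump, fell by 0.79 ± 0.05. Their median of 0.04 turns to -0.05 without treated replicate 1.

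Genes of protein synthesis that passed mostly rose, and by small amounts. In ribosome biogenesis 21 of 36 rose and 6 fell (median 0.19), with the methyltransferase gene rrp8 up by 0.65 ± 0.05 and the helicase gene dbp3 by 0.57 ± 0.06, while bms1 fell by 1.00 ± 0.06. Mitochondrial ribosomal proteins had 25 of 47 higher and 6 lower (median 0.17), from mrpl44 (0.69 ± 0.06) to mrp51 (-0.86 ± 0.11). The 117 cytosolic ribosomal protein genes had a median of 0.02, with 17 higher and 1 lower (14.5% and 0.855%), below the shares over all genes. That count was 26 higher and 5 lower with a trended, robust prior, 11 higher with the replicate block, and 8 and 10 higher without control replicate 1 and control replicate 2. Among them rpl3002 rose by 0.47 ± 0.04. These genes are near-identical pairs in part, and the probe sets of a pair can share signal. The 32 genes of mitochondrial import and chaperones had 12 higher and 9 lower (37.5% and 28.1%), with tim18 2.16-fold lower. Of 74 splicing factors 26 rose and 16 fell (35.1% and 21.6%), with prp10 lower by 0.95 ± 0.07. Both lists lay near the shares over all genes, 35.5% higher and 26.9% lower.

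Genes of heterochromatin were mostly higher, while centromere and histone genes moved in both directions. Of 21 genes of heterochromatin and RNA interference 15 rose and 0 fell in limma, with a median of 0.23; after centring 16 rose and 1 fell, after quantile normalization 14 rose and 2 fell, and without control replicate 2, 9 rose. The RNA interference gene ers1 read 6.42 and 6.46 in treated and 5.61 and 5.48 in control arrays, a rise of 0.90 ± 0.06. The silencing gene clr2 rose by 0.87 ± 0.11 and stc1, which links the interference and methylation complexes, by 0.77 ± 0.04. At an unadjusted p of 0.05, 1 member lay lower, the chromodomain gene chp1 (-0.31 ± 0.12), which was singled out after its values were seen. In the centromere list 17 of 39 rose and 5 fell (median 0.12), and the number that fell was 8 without either treated wild type array and 9 in a fit to the deletion arrays alone. The spindle checkpoint gene mad1 was 2.07-fold higher and the shugoshin gene sgo1 rose by 0.95 ± 0.09. Of 9 histone genes 4 fell and 2 rose (median -0.19), and the H2B gene htb1 was 2.11-fold lower.

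Cell cycle, replication and mating genes moved in both directions. The CDK inhibitory kinase gene wee1 read 4.62 and 4.66 in treated and 5.67 and 5.70 in control arrays, 2.06-fold lower, while the opposing phosphatase gene cdc25 was at -0.14 (adjusted p = 0.229), which passed in a fit to the deletion arrays alone and without either treated wild type array. Of 28 genes of CDK control 10 fell and 5 rose, and 3 rose without control replicate 2. The replication initiation gene cdc45 was 2.12-fold higher and the MBF factor gene res2 2.18-fold lower, in a list where 15 of 35 rose and 10 fell. Without control replicate 1, 5 fell, and without treated replicate 1, 6 fell. In DNA repair 18 of 54 rose and 13 fell (33.3% and 24.1%), near the shares over all genes. There the alkyltransferase-like gene atl1 was 2.08-fold higher and rad50 2.10-fold lower. The median of the DNA repair list, 0.02, turns to -0.01 without treated replicate 2. The mating list had 13 of 30 higher and 6 lower, and 8 higher without either control array of the deletion. Its M-factor pheromone gene mfm2 read 8.74 and 8.70 in treated and 7.28 and 7.27 in control arrays, 2.72-fold higher. Further large rises were the dynactin gene ssm4, at least 2.89-fold higher over a control mean under background, adenine deaminase dea2 (2.37-fold), the thiamine-repressed phosphatase gene pho4 (2.33-fold) and the mitochondrial NADH kinase gene pos5 (2.10-fold).

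The comparison with wild type asked how the response differs when Pap1 is absent. In wild type 2323 genes (80.2%) passed, with changes of at least 2-fold upward in 160 (5.52%) and downward in 359 (12.4%). The difference between the 2 responses passed in 1711 of 2896 genes (59.1%), with 983 (33.9%) higher and 728 (25.1%) lower in the deletion, and it was at least 2-fold in 173 (5.97%) and 17 (0.587%) of these. After centring each array on its median S. pombe gene the split was 845 higher and 940 lower, and after quantile normalization over these genes it was 810 and 975. Most genes that answered in both strains moved the same way: 1588 genes passed in both, 1451 in the same direction and 137 in opposite directions. The 1451 are 80.3% of the genes called in the deletion and 62.5% of those called in wild type. Among them the response was smaller in the deletion in 1161 genes, with the difference passed in 832, and larger in 290, with the difference passed in 58. The median size was 0.42 in the deletion and 0.73 in wild type, and the median ratio was 0.58. Across genes, which are not independent replicates, the 2 responses had a Pearson correlation of 0.79 and a Spearman rank correlation of 0.76.

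**Figure D4:**
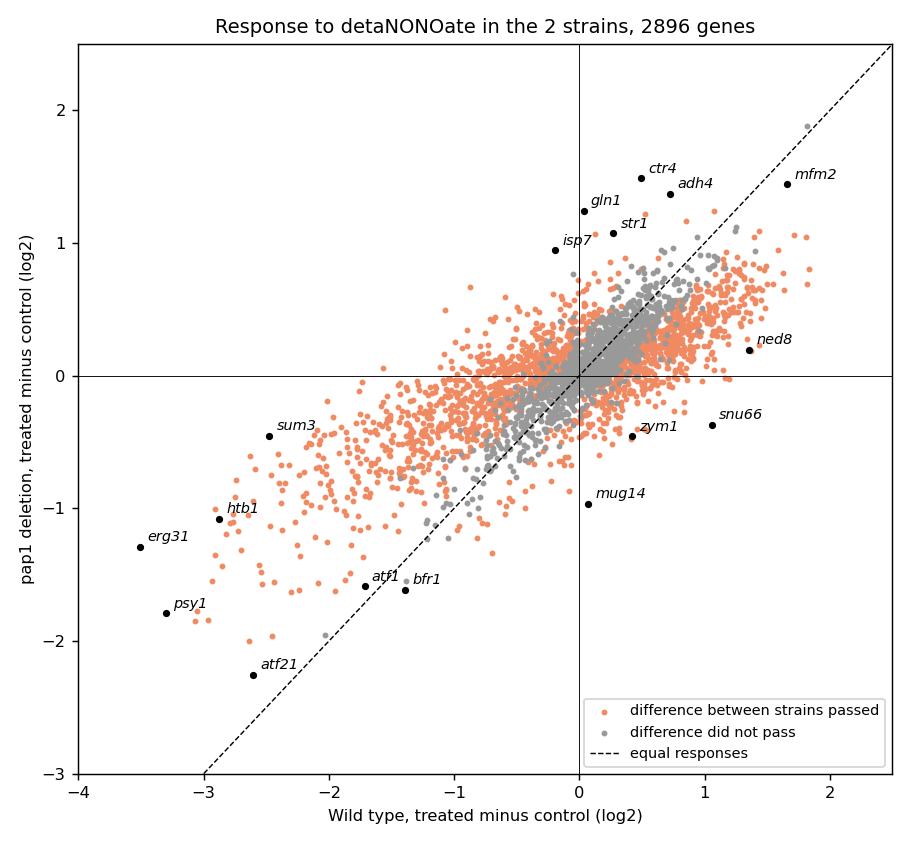
Response of each of 2896 genes to detaNONOate in the pap1 deletion (vertical axis, log2, treated minus control) against that in wild type (horizontal axis), with genes whose difference passed in orange, the others in grey and named examples of either kind in black. Most orange points in the lower left lie above the dashed line of equal responses, and gln1, ctr4 and adh4 lie above it with positive responses in the deletion.

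The Sty1 factors fell in both strains. The change in atf1 was -1.59 in the deletion and -1.71 in wild type, and their difference was 0.13 with a 95% interval from -0.12 to 0.38. For pcr1 and srk1 the fall was smaller in the deletion, by 0.67 ± 0.08 and 0.89 ± 0.06 (SE). In the Sty1 list 29 of 31 fell and 2 rose in wild type (median -1.06; 39.7% of all genes fell and 40.5% rose there), and the difference passed in 20, against 59.1% of all genes. In the core stress list 19 of 23 fell in wild type (median -0.95) and the difference passed in 19. The hexose transporter ght3 fell further in the deletion, by 0.56 ± 0.06.

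In the Pap1-dependent list 9 of 10 fell in wild type (median -0.47), and the difference passed in 6 of the 10, close to the 59.1% over all genes. For bfr1 the fall was larger in the deletion, with a difference of -0.22 ± 0.05 (adjusted p = 0.0105), and for srx1 as well (-0.36 ± 0.06). For ctt1 the difference was 0.11, with an interval from -0.07 to 0.30, and for obr1 it was 0.11, from -0.03 to 0.25. Neither passed. For gst2, whose level in the deletion was low throughout, the difference was 0.96 ± 0.21, since the wild type value fell by 0.99.

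Among falls shared by the strains, the largest differences were falls that were smaller in the deletion. The sterol desaturase gene erg31 read 6.002 and 6.111 in treated and 7.29 and 7.40 in control deletion arrays, against 4.75 and 4.47 in treated and 8.11 and 8.12 in control wild type arrays. Its response differed by 2.22 ± 0.13 (adjusted p = 2.95e-05). The RNA helicase gene sum3, which acts in translation initiation, fell by 0.45 in the deletion and 2.48 in wild type, a difference of 2.02 ± 0.12. The histone gene htb1 was at -1.08 in the deletion and -2.88 in wild type, a difference of 1.80 ± 0.08. The bHLH factor gene esc1, the palmitoyltransferase gene pfa3, the coenzyme Q gene coq10, the complex III gene qcr1, the synaptobrevin gene syb1 and the stress gene rnc1 belong here too, with differences from 1.72 to 2.02. All of these were among the 10 genes with the largest positive difference past both thresholds, and the 3' to 5' balance shifted by 0.99 in the deletion and 2.01 in wild type.

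A smaller group rose in the deletion and less, or not at all, in wild type. The glutamine synthetase gene gln1 read 10.25 and 10.33 in treated and 9.03 and 9.07 in control deletion arrays, against 8.90 and 9.01 in treated and 8.99 and 8.85 in control wild type arrays. Its treated and control values overlapped in wild type and stood apart in the deletion, a difference of 1.21 ± 0.09 (adjusted p = 6.41e-05). The copper transporter gene ctr4 rose by 1.49 in the deletion and 0.49 in wild type, a difference of 0.99 ± 0.10. The NADH kinase gene pos5 (0.94 ± 0.15), the siderophore transporter gene str1 (0.80 ± 0.11), the phosphatase gene pho4 (0.70 ± 0.09) and adh4 (0.65 ± 0.08) likewise rose more in the deletion. The dioxygenase gene isp7 rose by 0.95 in the deletion and was at -0.19 in wild type (adjusted p = 0.258), a difference of 1.14 ± 0.21. In the amino acid list, 8 of 35 rose and 19 fell in wild type (median -0.24), and the difference passed in 23, against 59.1% of all genes. By contrast frp1 and cis4, which rose in both strains, differed by -0.16 and -0.13, with intervals from -0.36 to 0.05 and from -0.43 to 0.16.

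Other genes answered in opposite directions or fell in the deletion alone. Of the 137 genes called in opposite directions 88 rose in the deletion and fell in wild type and 49 did the reverse. The difference passed in all 137, which follows from 2 calls of opposite sign in the same fit and adds no support of its own. The metallothionein gene zym1 fell by 0.46 in the deletion and rose by 0.42 in wild type, a difference of -0.88 ± 0.06. The splicing factor gene snu66 read 7.15 and 7.28 in treated and 7.63 and 7.53 in control deletion arrays, against 8.56 and 8.59 in treated and 7.55 and 7.47 in control wild type arrays. Its 2 responses thus had opposite signs, with a difference of -1.43 ± 0.09, the largest negative difference of the genes past both thresholds. The gene mug14 fell by 0.96 in the deletion (8.33 and 8.35 in treated and 9.32 and 9.28 in control arrays) and was at 0.07 in wild type (adjusted p = 0.265). The monopolin gene csm1 and the RNase P gene pop8 rose in both strains, less in the deletion by 1.12 ± 0.09 and 1.03 ± 0.12. A further 218 genes were called in the deletion and not in wild type, but the difference passed in 130 of them, 85 higher and 45 lower in the deletion. That share is close to the 59.1% over all genes, so a call in the deletion alone did not make a passed difference more frequent.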

How the data were processed

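Each deposited value is the log2 expression of a probe set of the Affymetrix Yeast_2 array, for which the authors used RMA, per the submitters' processing notes (version not given in the sources used here). They were used without further scaling. RMA in its standard form equalises arrays, so a change of all messages together cannot be seen. Of 10928 probe sets 2914 carry the name of 1 S. pombe gene, 2601 of an S. cerevisiae gene, 20 of several genes and 5390 of none, and 3 carry a name placed in neither species. Symbols of 113 genes were updated through locus tags, the brightest probe set was kept for 14 genes with several, and 10 genes on shared probe sets are not named. In all 2812 genes lay above background.

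R 4.3.3 with limma 3.58.1 fitted 4 group means to all 8 arrays (lmFit, eBayes without trend, 4 residual and 3.07 prior degrees of freedom), and p-values were adjusted by Benjamini-Hochberg over 2896 genes. A gene was called at an adjusted p under 0.05. With 2 arrays per group the precision is limited, with a median SE of 0.058 in the deletion. Fold bounds were set against the background level. On simulated data for the deletion contrast (2896 genes, 200 changed) limma called 58.2%, 97% and 97% of genes changed by 0.3, 0.6 and 1 on the log2 scale, and 11 of the unchanged genes. The simulated errors were independent, with no shift common to the treated arrays. These rates therefore do not carry over to the data, in which 62.4% of genes were called.

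The text names, for the deletion, the 15 largest rises and 15 largest falls with non-overlapping arrays, 10 genes each way with the largest difference between strains, up to 4 members per list and fixed stress genes; values are given for part of these. Lists share members, and 1 list and its members are not reported here. The members and lists were chosen with earlier results of these data known. Alternatives were other scalings, a filter on dim genes, the mean of probe sets, the strain's arrays alone, a trended robust prior, a replicate block and leaving out each array. Replicate numbers did not pair the arrays, with correlations of deviations of -0.26 in the deletion and -0.04 in wild type. Sequences and coordinates were not used here.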

Additional observations from a re-analysis of the deposited data

Results flagged for a closer look

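The response of the pap1 deletion minus that of wild type passed the test of the difference in 1711 of 2896 genes. The differences below are on the log2 scale, deletion minus wild type, and each passed that test in limma at an adjusted p of 0.05. A positive value beside a fall means a smaller fall in the deletion.

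Among genes that fell in both strains, the difference was 2.22 in erg31, 2.02 in sum3, 2.02 in pfa3, 1.96 in esc1, 1.90 in coq10, 1.89 in qcr1 and 1.83 in syb1. It was 1.80 in htb1, 1.72 in rnc1, 1.51 in psy1, 1.28 in tbp1, 1.22 in nep2 and 1.12 in rds1. Smaller values were 1.00 in php4, 0.96 in fic1, 0.92 in sty1, 0.89 in srk1, 0.82 in wee1, 0.67 in pcr1, 0.66 in gpd1 and 0.64 in sfp1. The range ended with 0.62 in cgs1, 0.59 in fbp1, 0.52 in isp3, 0.49 in gld1, 0.36 in act1, 0.33 in cgs2, 0.33 in cta3 and 0.32 in tps1. For act1 the deletion call did not hold under every alternative. The fall was larger in the deletion for srx1 (-0.36), gpx1 (-0.27), bfr1 (-0.22), hsp9 (-0.18) and pyp2 (-0.18).

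Among genes that rose in both strains, the rise was larger in the deletion by 0.99 in ctr4, 0.80 in str1, 0.70 in pho4, 0.65 in adh4, 0.32 in grx4 and 0.17 in dea2. The difference was negative in epr1 (-1.21), ned8 (-1.16), csm1 (-1.12), apc14 (-1.06), pop8 (-1.03), atl1 (-0.66), cdc45 (-0.35), mad1 (-0.35) and mfm2 (-0.22). Among these the deletion calls of epr1, ned8 and apc14 did not hold under every alternative.

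Among genes called in opposite directions, the difference was -1.43 in snu66, -1.11 in rev1, -1.04 in snu23, -1.02 in mam3, -0.88 in zym1 and 0.33 in pgr1. It was also -0.36 in pap1, whose probe set lay under background in all deletion arrays. The deletion calls of rev1, snu23, mam3, pgr1 and pap1 did not hold under every alternative. Of the genes flagged here, those called in the deletion and not in wild type were gln1 (1.21), pos5 (0.94) and mug14 (-1.04). Flagged genes called in wild type and not in the deletion were gst2 (0.96), caf5 (0.55) and trr1 (0.21).

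Signal was also present outside the 2896 genes. Of 5224 probe sets with no gene name 2133 lay above background, and of these 2133, 531 rose and 374 fell in the deletion, from 1.42 to -3.49 on the log2 scale. What these probe sets measure was not analysed here.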

How the results depend on the processing

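None of the 12 counts of calls over all genes moved by over 1.5 times under the 16 alternatives, while counts within lists did where stated beside them, and 1 of the alternatives was chosen after seeing the data. Calls in the deletion numbered 1806 as reported and 1467 to 1898 with 1 array left out at a time, with 794 to 1078 higher and 617 to 820 lower. Calls of at least 2-fold numbered 85 as reported, 17 higher and 68 lower. With an array left out, the numbers in each direction moved more than their total did. The difference between strains passed in 1460 to 1742 genes with an array left out. With the replicate number as a block 1659 genes passed in the deletion and 1556 in the difference, and the block ended the calls of act1 and epr1 among named genes. With the numbers crossed 1828 genes passed in the deletion. Of 178 named genes 174 were called in the deletion, and 163 kept direction and side under every alternative. Apart from the fixed stress genes, named genes had to be called in the deletion to be named, so these numbers do not describe all 1806 calls. The value of gst2, -0.03 and not called, turned to 0.20 without treated replicate 1 and to 0.084 without control replicate 1, ranging down to -0.27 without treated replicate 2, and the cause was not tested. Calls of epr1, eng1, mam3, snu23, rev1, act1, atg4, apc14, ned8, pgr1, tas3, pap1 and rum1 in the deletion were lost in at least 1 alternative. Medians changed sign in at least 1 alternative for the lists of glutathione and thioredoxin, iron, glycolysis, sterols, DNA repair and membrane transporters. In all 67 genes lay under background in the 4 deletion arrays, where changes cannot be measured.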
